A study of Mus musculus with 16 samples.

Results

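Among 24955 regions of open chromatin that were called in every one of 16 libraries, 152 lost a large share of their enrichment after 6 h of culture with interleukin-1β (IL-1β). They make up 0.609% of those shared regions. The 152 were chosen by measured values. Peaks of all lists were merged, and the highest deposited fold enrichment of each region in each library was put on a log2 scale and set relative to that library's median. A region was taken when its mean over the 8 IL-1β libraries lay at least 0.5 under its mean over the 8 baseline libraries and when it fell in at least 7 of the 8 mouse samples. The IL-1β fall therefore defines these regions and is given as a description, with no test. The same rule turned round gave 279 regions that rose.

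The libraries come from bone marrow of male C57Bl/6 mice and were made by ATAC-seq, an assay that uses the Tn5 transposase to insert adapters into accessible DNA. The cells had been depleted of those carrying CD3, CD4, B220, Ter119 or Gr1 and were labelled haematopoietic stem cells; a fraction depleted in this way also holds committed progenitors. The 4 control mouse samples had no treatment and the 4 diabetic ones had diabetes induced by streptozotocin, a toxin of pancreatic beta cells. Each sample was divided. One portion was lysed at once (control baseline and diabetic baseline, 4 libraries each) and the other was cultured for 6 h with 10 ng/mL IL-1β (control IL-1β and diabetic IL-1β, 4 libraries each). No portion was cultured without the cytokine, so IL-1β and culture cannot be told apart. Shared regions lay within 10 kb of 13 of 20 stem cell surface genes, 23 of 24 genes of granulocyte and monocyte progenitors, 16 of 18 of mature neutrophils, 10 of 14 of B cells and 10 of 19 of T and NK cells.

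IL-1β is an inflammatory cytokine whose receptor acts through the adaptor MyD88 on NF-κB, and in marrow it drives progenitors towards the myeloid lineage. Accessible DNA away from promoters often marks enhancers, where transcription factors keep nucleosomes off, and such sites can close when those factors leave. A loss of signal in a mixed fraction can also come from fewer cells of a type, and fewer cells and less accessibility per cell cannot be told apart here. RFX transcription factors, which control genes of cilia, bind an inverted repeat called the X-box. Its arms vary in their letters, and GTTNCC is the strict form searched for here.

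The promoters below belong to 4 members that lay on the start sites of genes of cilia and flagella, out of 9 members on a start site. They are shown as examples of members on start sites and were singled out after the values had been seen. Each sequence runs 5′ to 3′ on the gene's strand from 250 bases before the RefSeq start site to 50 bases after its first base, in build GRCm38.p6, whose main chromosomes have mm10 coordinates. Capitals mark GTTNCC on either strand. The summit of the member lay at most 62 bases from each start site.
Dynlrb2, chr8:116504765-116505064, plus strand: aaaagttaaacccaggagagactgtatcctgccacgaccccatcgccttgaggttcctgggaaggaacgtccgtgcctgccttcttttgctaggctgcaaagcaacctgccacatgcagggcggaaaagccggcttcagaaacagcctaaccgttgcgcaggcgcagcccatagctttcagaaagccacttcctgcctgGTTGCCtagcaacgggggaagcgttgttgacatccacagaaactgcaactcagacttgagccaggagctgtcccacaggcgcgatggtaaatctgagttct
Dlec1, chr9:119102259-119102558, plus strand: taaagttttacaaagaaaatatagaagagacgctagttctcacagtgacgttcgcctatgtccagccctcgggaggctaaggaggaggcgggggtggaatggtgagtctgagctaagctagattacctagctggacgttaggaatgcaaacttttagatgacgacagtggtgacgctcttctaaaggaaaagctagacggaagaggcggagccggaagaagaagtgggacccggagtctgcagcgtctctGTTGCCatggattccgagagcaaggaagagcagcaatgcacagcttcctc
Spag6l, chr16:16829314-16829613, minus strand: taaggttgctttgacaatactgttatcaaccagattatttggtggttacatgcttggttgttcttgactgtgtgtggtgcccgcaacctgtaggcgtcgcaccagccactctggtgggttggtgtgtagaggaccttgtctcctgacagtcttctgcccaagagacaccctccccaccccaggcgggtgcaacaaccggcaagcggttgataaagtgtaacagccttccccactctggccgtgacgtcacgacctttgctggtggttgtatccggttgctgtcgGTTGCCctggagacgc
Cfap43, chr19:47837312-47837611, minus strand: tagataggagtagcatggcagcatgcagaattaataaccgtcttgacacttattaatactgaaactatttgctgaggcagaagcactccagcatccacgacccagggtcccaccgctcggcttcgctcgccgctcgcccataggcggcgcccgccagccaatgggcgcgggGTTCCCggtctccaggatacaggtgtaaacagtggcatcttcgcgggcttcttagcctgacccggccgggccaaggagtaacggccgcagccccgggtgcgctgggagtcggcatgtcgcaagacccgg

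In each of the 4 promoters GTTNCC stood once. Its middle lay 13 bases from the summit in Dynlrb2, 43 in Dlec1, 63 in Spag6l and 80 in Cfap43. The summit is the median position over the 16 libraries. In all, 10 RefSeq promoter entries at 9 member regions had a start site inside the member, and 7 of the 10 held GTTNCC on either strand. The element stood in 47.5% of the 11445 promoters under shared regions and in 45.3% of all 32851 promoters of this length, so it is a common string. Arms facing each other within 3 bases, both in that strict form, stood in 0 of the 10 against 0.952% of promoters under shared regions. Looser arms were not counted, so the 0 does not show that an X-box is absent. In Dynlrb2 GTTGCC is followed by tagcaac, a facing arm that the strict form leaves out. The AP-1 element TGANTCA, the GATA element AGATAA and the NF-κB element GGGANTTCC were each in 0 of the 10. They stood in 4.42%, 5.42% and 2.46% of promoters under shared regions. E-boxes (CANNTG) stood in 6 of 10 against 61.4%. These are letters in a window and say nothing of what bound there.

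Members were mostly far from gene ends and many were far from any gene. Only 15 of 152, or 9.87%, lay within 1 kb of either end of a coding gene (95% exact binomial interval 5.63% to 15.8%, which covers counting error only), against 39.8% of all shared regions. A further 60 members (39.5%) lay inside a gene and over 1 kb from its ends, against 32.9%. At the other extreme, 33 members (21.7%) were over 50 kb from every coding gene, against 6.44% of shared regions. The regions that rose were at gene ends in 14.7% and over 50 kb from a gene in 12.9%.

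**Figure D1:**
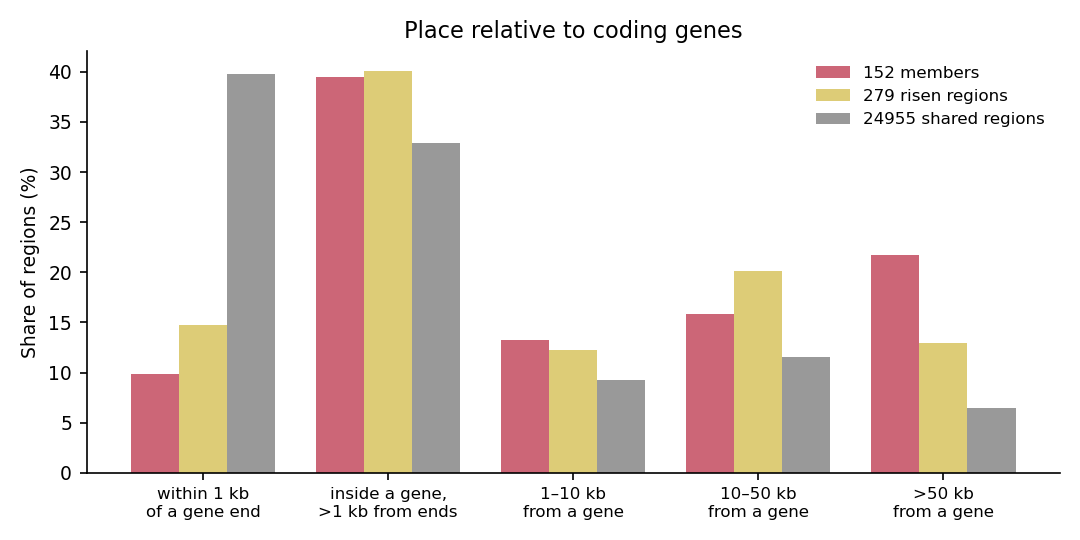
Share of regions (vertical axis, %) in 5 classes of distance to coding genes, for the 152 members, the 279 risen regions and all 24955 shared regions. Members are fewest at gene ends, with 9.87% against 39.8% of shared regions, and 21.7% of them lie beyond 50 kb from a gene against 6.44% of shared regions.

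They were also narrower and simpler than the average shared region. Their median width was 509 bp against 692 bp. A single summit in every library was found for 71.7% of members and for 43.2% of shared regions. At baseline their median relative enrichment, the fold divided by the library's median fold, was 1.11, where the median shared region stood at 0.997. The rule uses the baseline values, so it favours a high baseline in members and a low one in risen regions (0.614). In reads the members were thinner, with a median of 31.25 at the summit at baseline and 16 after IL-1β. Shared regions had 44 and 35.5. Counts of this size limit the precision of each single region. The risen regions were also narrower than shared regions, with a median width of 577 bp, and 51.3% had a single summit in every library. Their median at baseline was 21.5 summit reads. Narrow width, a single summit and few reads are therefore not particular to the members.

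Members were rare, and few lay near another. Within 50 kb of another member lay 4 of the 152 (2.63%), while 78.3% of members had some other shared region that near. Of the shared regions within 50 kb of a member 1.09% were members, against 0.609% of all shared regions, so the low count goes with the small number of members and does not set them apart. Among risen regions 43 of 279 (15.4%) had a risen neighbour within 50 kb. The close pairs were at Lrrk2 on chromosome 15, with 32714 bp between the regions, and at Mrgpra2b on chromosome 7, with 11052 bp. Mrgpra genes form a family of near-identical copies, so reads there may be shared between copies. A wider pair, in Pde4b and between it and Sgip1 on chromosome 4, was 93008 bp apart. The 363 shared regions that lay within 50 kb of a member without being members had a median change of 0.03, against 0.04 for all non-members.

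A member lay within 10 kb of 115 coding genes, and of these only Lrrk2 had 2 members, a count that their rarity limits. Among the risen regions 18 genes had 2 or more. A gene with a member had a median of 3 shared regions, and for 18 genes the member was the only shared region. Members were found on all chromosomes but Y, where 0 of 7 shared regions qualified. The share ran from 0.253% of shared regions on chromosome 17 to 1.03% (20 of 1941) on chromosome 2.

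Across the 152 members the mean change had a median of -0.57 and ran from -0.91 to -0.50. The median change of all shared regions was 0.04. The fall was seen in both phenotypes, with a median over members of -0.61 in control and -0.54 in diabetic mice. Of the members, 104 fell in 8 of 8 mouse samples and 48 in 7 of 8. In 35 members all 8 IL-1β values lay under all 8 baseline values, as they did in 0.268% of all shared regions; the rule selects for such separation, so nothing is read from this. By mouse, the median change ran from -0.42 in diabetic mouse 2 to -0.79 in control mouse 2, and between 1 and 16 of the 152 members did not fall in a given mouse, the most in diabetic mouse 4.

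**Figure D2:**
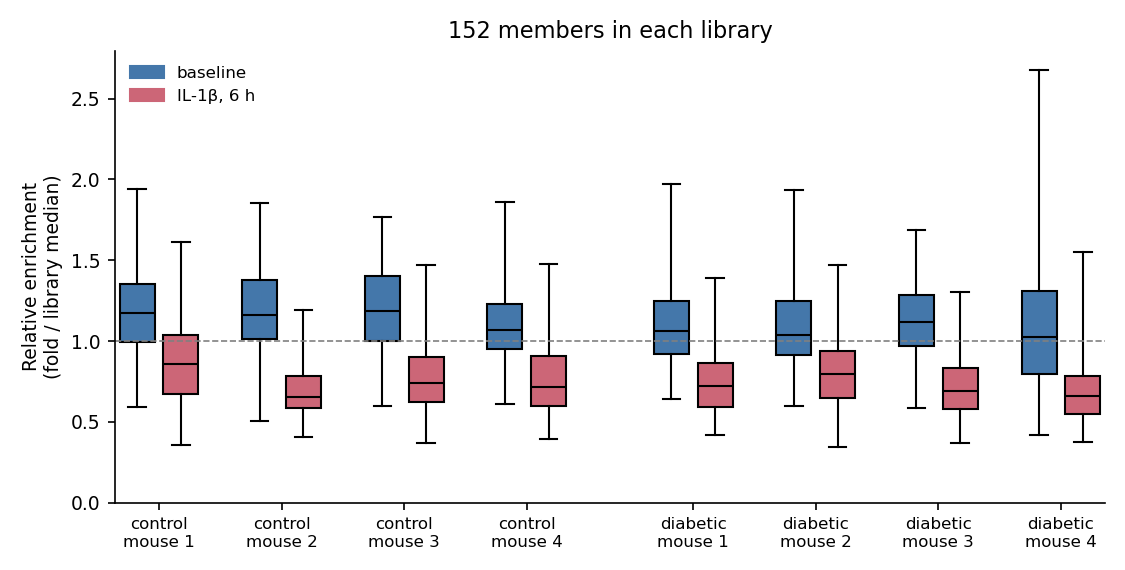
Relative enrichment (fold divided by the library's median fold, vertical axis) of the 152 members in each of the 16 libraries, paired by mouse. Boxes span the quartiles with the median as a line and whiskers reach the lowest and highest member; the dashed line marks the library median. Medians of baseline libraries lie between 1.025 and 1.185 and those of IL-1β libraries between 0.654 and 0.86.

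The fall was read again in mice whose changes had taken no part in choosing regions. The regions still had to be called in all 16 libraries, those of the mouse left out included. When the other 7 mice chose, 134 to 201 regions qualified, and 70.5% to 97.1% of them fell in the mouse left out. Of all shared regions, 38.5% to 51.1% fell in those mice. The median change of the chosen regions in the mouse left out ran from -0.26 (diabetic mouse 2) to -0.56 (control mouse 2), smaller than the -0.56 to -0.58 in the mice that chose them.

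The largest fall was inside Ssbp2, the gene of a cofactor of LIM-domain transcription complexes, at chr13:91509456-91509904 of mm10. Its baseline relative enrichment had a lowest value of 0.851, a median of 1.07 and a highest of 1.20. After IL-1β these were 0.358, 0.582 and 0.720. The groups did not overlap, and the mean change was -0.91 ± 0.21 (SD over 8 mouse samples). Summit reads went from a median of 34 to a median of 11. Over all 7 shared regions within 10 kb of Ssbp2 the median change was -0.01 and the highest 0.23.

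Ppp1r12b and Ror1 also held large falls inside the gene. The region in Ppp1r12b (chr1:134771940-134772435), a regulatory subunit of myosin phosphatase, had baseline values with a lowest of 0.720, a median of 1.03 and a highest of 1.31. After IL-1β the values were 0.430, 0.597 and 0.651 in the same order, again without overlap, and the change was -0.85. The other 4 shared regions of Ppp1r12b had a median change of 0.003 and ran from -0.361 to 0.172. Ror1, the gene of a receptor of Wnt5a, had a single shared region, at chr4:100271196-100271845. Its lowest, median and highest values were 1.04, 1.21 and 1.58 at baseline. They were 0.528, 0.650 and 0.969 with IL-1β, below every baseline value.

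Lrrk2 encodes a kinase that phosphorylates Rab GTPases and is expressed in myeloid cells. Its stronger member, at chr15:91719281-91719819 inside the gene, stood at a lowest of 0.784, a median of 0.989 and a highest of 1.23 at baseline, and at 0.376, 0.564 and 0.758 after IL-1β. The weaker one, at chr15:91685825-91686567, changed by -0.50 and its groups overlapped. The other 3 shared regions of Lrrk2 ran from -0.10 to 0.15, so the 2 members were the gene's only shared regions that fell by the rule.

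**Figure D3:**
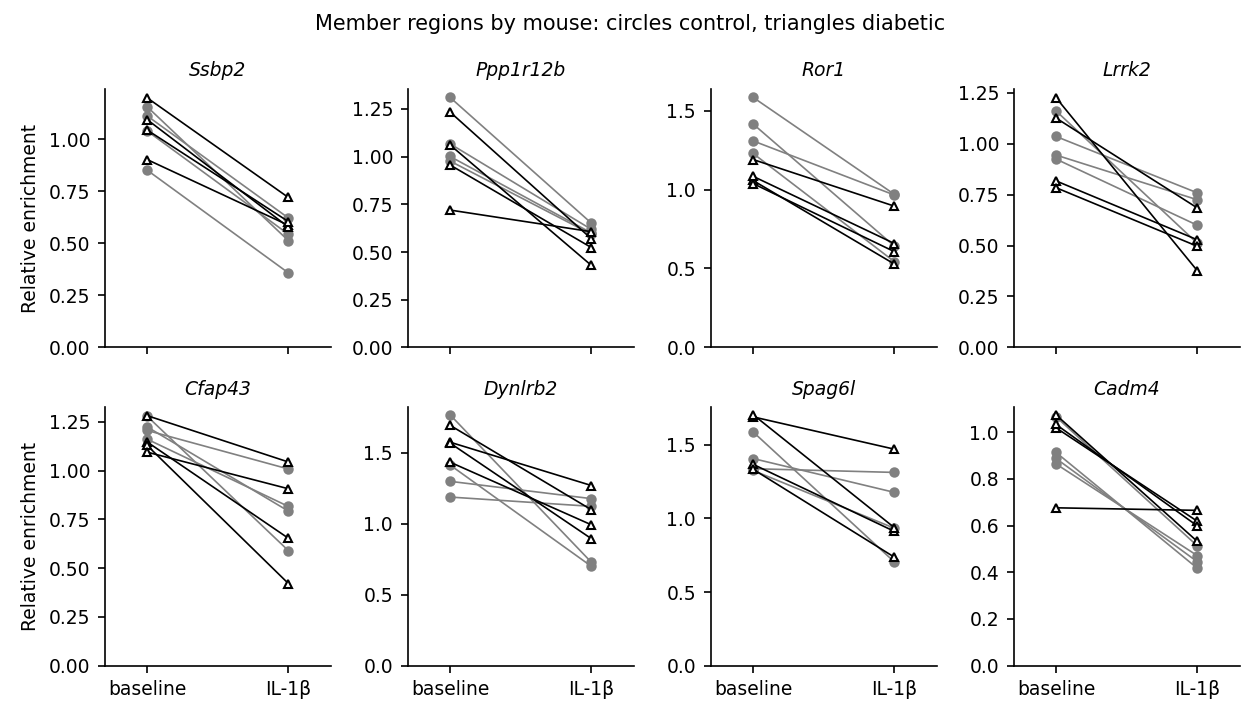
Relative enrichment (vertical axis) of 8 member regions, named by nearest gene, at baseline and after IL-1β. Each line joins the portions of a mouse sample, grey circles for control and black triangles for diabetic. The lines fall in all 8 mice in each panel; the groups of the Ssbp2 region do not overlap, while those of the Dynlrb2 and Spag6l regions do.

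Other large falls lay outside genes and are named by the nearest gene on position alone. They were 16676 bp from Poc1b, a centriole gene (-0.88), and 41079 bp from Tnfsf15, a ligand of the TNF family (-0.86). Regions 151880 bp from Mid1ip1 (-0.81), 135020 bp from Nrp1, a co-receptor of semaphorins and VEGF (-0.80), 187516 bp from Ifng (-0.76) and 119220 bp from Rbms1 (-0.76) were farther away. The region 19217 bp from Suco (-0.75) had the deepest baseline of these, with a median of 77.5 summit reads against 16 after IL-1β. Members within the genes Zfp831 (-0.79), Fam98b (-0.77) and Cpsf6, a factor of mRNA 3′ end cleavage (-0.75), and the region at the start site of Cadm4 (-0.83), whose summit reads did not fall with the fold, complete the 15 largest. Of these 15 only the Zfp831 region fell in 7 and not 8 mice.

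Of the 9 members on start sites, 4 were at genes of cilia and flagella and 5 at other genes. In Dynlrb2, which encodes a light chain of dynein, baseline values ran from 1.19 to 1.77 with a median of 1.5, and IL-1β values from 0.70 to 1.27 with a median of 1.05. At Spag6l, whose protein sits in the central apparatus of the axoneme, they ran from 1.33 to 1.71 with a median of 1.39, and after IL-1β from 0.704 to 1.47 with a median of 0.935. In both the groups overlapped. At Cfap43, a flagellar protein, the 8 baseline values (1.10 to 1.28, median 1.18) all lay above the 8 IL-1β values (0.421 to 1.04, median 0.805). At Dlec1 the median went from 1.02 to 0.619, and the lowest baseline and highest IL-1β values were nearly equal (0.944 and 0.945).

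A member also lay inside Dync2li1, a light intermediate chain of the dynein that runs along cilia (change -0.55). These genes were noticed after their values had been seen. Among 90 coding genes with related naming stems (Cfap, Ift, Dnah, Dnaaf, Dync2, Dynlrb, Bbs, Rsph, Spag6 and Dlec1), 71 had a shared region within 10 kb, 136 regions in all. The 5 members among them were those at the genes already noticed, and the other genes added 0, so their share is fixed by the choice. The median change of the 136 regions was 0.03, with 44.9% below 0, against 0.04 and 40.8% over all shared regions. A change of -0.25 or lower was seen in 18 of the 136 (13.2%), against 7.08% of all shared regions. The 18 include the 5 members already noticed, and the difference was not tested.

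The other members at start sites were at Zfp455, Dctd, Arhgef3, Cadm4 and 1110008P14Rik. Zfp455, a zinc finger gene, changed by -0.53 and Dctd, a dCMP deaminase gene, by -0.52. The regions at Dctd and Arhgef3, an exchange factor of small GTPases (-0.55), lay at internal start sites, over 1 kb from the ends of the gene.

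Fold enrichment divides reads at the summit by a local background, so the 2 parts were looked at separately, with reads and background recovered from the deposited fold and p. Scaled summit reads fell by a median of 0.64 (log2), more than the fold in 103 of 152 members. In 129 members the reads fell by at least 0.5, in 21 by 0.25 to 0.5, and in 2 by less or not at all, with limits chosen after the values had been seen. The 2 were at Cadm4, an adhesion molecule (chr7:24481524-24482176), and at 1110008P14Rik (chr2:32381518-32382257), both at GC-rich start sites (77.0% and 71.3% of the promoter). At Cadm4 the fold fell by 0.83 while reads changed by -0.01 and the scaled background rose by 0.82. At 1110008P14Rik the fold fell by 0.58 while reads changed by 0.11 and the background rose by 0.69. In both, the local background moved with the fall in fold, and the reads did not. The 1110008P14Rik region is also the one within 10 kb of Lcn2, the neutrophil gene lipocalin-2.

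**Figure D4:**
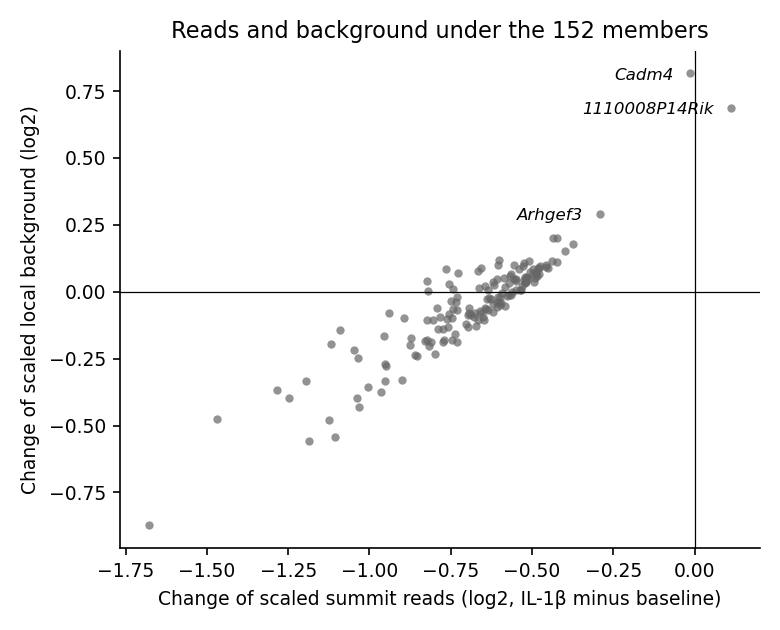
Change of scaled summit reads (horizontal axis, log2, IL-1β minus baseline) against change of scaled local background (vertical axis, log2) for the 152 members. Cadm4 and 1110008P14Rik stand at the upper right with reads at -0.01 and 0.11 and background at 0.82 and 0.69; Arhgef3 is next, with reads at -0.29 and background at 0.29, and 129 members lie at -0.5 or lower in reads.

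Gene lists chosen for marrow and for this stimulus held few members. Of 23 lists with 501 matched genes, 20 had no member, and the 1234 shared regions at listed genes held 4 members (0.324%, against 0.609% overall). Listed regions lie within 10 kb of a coding gene by definition, while 57 of the 152 members had none that near. Over 50 kb from a gene lay 21.7% of members and 6.44% of shared regions. The low share is therefore not read as a result about gene function. Members were also too rare for 0 in a single list to be read as a result. No region at the 38 genes of the IL-1 receptor and NF-κB list (106 shared regions) was a member, and their median change was 0.05. The immediate early and AP-1 list (93 regions) had none either, with a median of 0.20. The lists of stem cell surface genes, of granulocyte and monocyte progenitors, of lymphoid priming and of megakaryocyte and erythroid genes had none. Of the risen regions, 34 of 279 (12.2%) lay at listed genes, against 2.63% of members and 4.94% of shared regions. The 2.63% has the same limit of distance to genes.

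The 4 listed genes with a member were Zeb2, Ppp1r12b, Rhoh and Lcn2. Zeb2, a repressor needed for the differentiation of progenitors, had a member 6702 bp from the gene with a change of -0.54 and 7 of 8 mice falling. Rhoh, an atypical small GTPase of blood cells, had one inside the gene with a change of -0.53. Lists of cells that the depletion could have left (mature neutrophil, monocyte and macrophage, dendritic cell, B cell, T and NK cell, mast cell and basophil, stroma and endothelium) held 1 member among 158 shared regions (0.633%, near the 0.609% overall), that near Lcn2. Peaks of a marker gene are not a measure of cell number, and a shift in cell makeup was not tested.

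Members also lay at 25 genes that are described here by role and were picked, after the values were seen, because each has a member. Among receptors, Met, the receptor of hepatocyte growth factor (-0.54), Acvrl1, a receptor of bone morphogenetic proteins (-0.57), Tnfrsf10b, a receptor of TRAIL (-0.58), Il12rb2 (-0.65) and the fibronectin receptor subunit Itga5 (-0.61) had 1 member each. Pde4b and Pde7b, which break down cyclic AMP, had 1 each, at -0.60 in both. Among signalling enzymes there were Vrk1 (-0.61) and Inpp4b (-0.52), and among transcription and chromatin genes Zeb1 (-0.60), Mbd2 (-0.53), Mllt10 (-0.53) and Jade1 (-0.57). The 90 shared regions of the 25 genes included 26 members, and the others had a median change of 0.04; with genes picked in this way neither value is a result. The other 4 shared regions of Itga5 changed by -0.001 to 0.35, and the other 6 of Pde4b by -0.07 to 0.16. At some genes other regions fell too. The range over the others was -0.434 to 0.165 at Tnfrsf10b, -0.43 to 0.164 at Arhgef3 and -0.392 to 0.662 at Inpp4b. At Pde7b it was -0.427 to -0.076.

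Near the limit the values run on without a gap. The 3 members just inside -0.5 were near Gorasp1, Lrrk2 and Sgip1, at -0.503, -0.503 and -0.50. The 3 regions just outside were near Crh, C1qtnf3 and Nuak1, each at -0.499. Another 7 regions were past -0.5 in the mean but fell in only 6 mice, the strongest of them near Pitrm1 (-0.77) and Ccdc91 (-0.68).

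Whether diabetes altered these regions was tested in limma over all 24955 shared regions. The choice of members did not contrast the phenotypes, though it used the same values. At baseline 1 shared region, 0.00401%, was called at an adjusted p below 0.05, and it was not a member. After IL-1β limma called 0 regions (0.0%), and for the difference of the IL-1β change between phenotypes it called 0 (0.0%). The members called were therefore 0 in all 3 comparisons. The lowest limma adjusted p of a member was 0.626 at baseline and 1.0 in the others. At an unadjusted p under 0.05, 18 members passed at baseline (11.8%, against 7.92% of all regions), 15 after IL-1β (9.87% against 4.17%) and 6 for the difference of changes (3.95% against 2.8%). With the mouse as a block the members called were again 0. The p-values rest on the spread between libraries of the same group, pooled for each region over all 4 groups of 4. Outside the block fit, the portions of a mouse were treated as independent. In simulated data of this spread, the test at baseline found 49 of 100 regions changed by 0.5 and 94 of 100 changed by 1. The changed regions were drawn from all shared regions, whose median standard error at baseline was 0.138. It was 0.171 for members, so the test may miss more among members than these counts show.

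As a description, more members were lower than higher in diabetic mice. At baseline 105 of 152 (69.1%) were lower, with a median difference of -0.12, against 41.2% and a median of 0.04 over all shared regions. Without any 1 library the count lower at baseline ran from 102 to 114. After IL-1β 93 members were lower (61.2%, against 44.4% of all), with a median of -0.05. That median moved from -0.112 without diabetic IL-1β replicate 2 to -0.003 without diabetic IL-1β replicate 4, and was -0.008 without control IL-1β replicate 1 and -0.095 without control IL-1β replicate 2. The difference of the IL-1β change had a median of 0.07, with a smaller fall in diabetic mice in 98 members (64.5%, against 44.9% of all shared regions with a positive difference). It moved from 0.024 without control IL-1β replicate 2 and 0.03 without diabetic baseline replicate 4 to 0.143 without control IL-1β replicate 1. The rule chose members by these same changes. Over all shared regions the change spread wider in control mice (quartiles -0.10 and 0.16) than in diabetic mice (-0.09 and 0.13). Choosing large falls can then favour deep falls in control mice, so the 64.5% is not read as a result. The scaling sets the size of the phenotype differences. In recovered reads 85 members were lower at baseline (median -0.06) and 71 after IL-1β (median 0.015). With reads scaled by background the counts were 126 (median -0.283) and 127 (median -0.235). Scaling by background moves all regions of a library together. The shares over all shared regions were not taken for these values, so the counts do not show whether members differ from other regions.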

How the data were processed

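The 16 deposited lists each belong to 1 library, and all were made by the authors' peak caller. MACS2 2.1.1, Bowtie2 2.2.6, Trim Galore 1.8, FastQC 0.11.3, edgeR and DiffBind 2.4.8, and build mm10, are named per the submitters' processing notes. Nuclei of 50000 cells per replicate, fragments up to 1200 bp and 50-bp single reads are per the labels' protocols. Deposited per line are the summit's fold enrichment (a ratio over local background), its offset, −log10 values of p and of q, and a score. Read shift and duplicate removal are not given in the sources used here; they move summits and reads per summit.

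Peaks that overlapped or touched were merged into 102496 regions. Whole reads n and background λ were recovered from fold = (n + 1) / (λ + 1) and the Poisson p, within 0.001 of −log10 p, for at least 99.9987% of summits per library. Median summit reads of shared regions were 27 to 58 per library, and depth is known only this way. Phenotype contrasts used limma 3.58.1 (R 4.3.3) with 4 group means, a trended variance and Benjamini-Hochberg adjustment; computations were tested on simulated data, and Python 3.11.15 with scipy 1.17.1 did the rest. Genes and promoters are RefSeq GRCm38.p6. The promoter table used here holds no chromosome 18 entry, and away from promoters no sequence is printed.

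The members, lists and rules were chosen with earlier results of these data known. Regions named were the 15 largest falls (1 per gene), genes with 2 or more members, list members, the 3 on either side of the threshold, and members past a phenotype threshold, of which there were 0; start-site members and genes by role were added after the values were seen. Some items are not reported here. Alternatives were recovered reads, scaling by background, cyclic loess, no scaling (added after seeing the data), −log10 q of at least 5, an overlap of 50 bp, other limits, a mouse block and each library left out. Equal numbers pair portions within a phenotype because, per the series design, every sample was divided; within mice, both portions' deviations from the means of their groups had correlations between -0.0662 and 0.291 over the control mice, and between -0.119 and 0.256 over the diabetic ones.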

Additional observations from a re-analysis of the deposited data

Results flagged for a closer look

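In groups of 4, a value was set apart by Dixon's 95% critical value for its gap to the next value over the group's range, which chance passes in about 1 group in 20. It was passed in 5 of 108 groups tested (4.63%), over named members. At Cadm4, diabetic baseline replicate 1 had a relative enrichment of 0.676, and the other 3 stood at 1.02 to 1.07. Near Rbms1, diabetic baseline replicate 4 had 1.26, against 1.55 to 1.61. In Cpsf6, control baseline replicate 2 had 1.68, against 1.03 to 1.12, and diabetic IL-1β replicate 3 had 0.632, against 0.768 to 0.789. At Zfp455, diabetic IL-1β replicate 2 had 1.27, against 0.842 to 0.908.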

How the results depend on the processing

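The number of regions that qualify depends on the value and scaling. In recovered summit reads 458 regions qualified (126 of the 152 among them). With reads scaled by background 2547 did (150 of the 152), and 17.6% of those lay at gene ends; that scaling moved the median change of all shared regions to -0.24. With no scaling 593 qualified (all 152), with a median change of -0.10. Keeping peaks of −log10 q of at least 5 left 54 (32 of the 152, over 18741 shared regions). A mean change of at most -0.4 gave 380 and of at most -0.7 gave 19. Cyclic loess gave 166 (148 of the 152), an overlap of 50 bp gave 152 and falls in 8 of 8 pairs gave 104. Without any 1 library the number ran from 141 to 213 and the share at gene ends from 7.51% to 13.8%. The median share of regions falling in the mouse left out, 87.5%, was 79.6% to 90.7% under the other values and scalings. The lowest mouse, at 70.5% in the main values, stood at 56.5% with reads scaled by background and 74.4% with cyclic loess. With background scaling and with no scaling the median of all shared regions was itself below 0. Shares over all regions were not taken there. With distances of 20 and 100 kb, 1.32% and 3.95% of members had another near.

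The baseline phenotype comparison gave 1 called region, 0 in recovered reads, and 0 to 2 without any 1 library; with the replicate block it gave 1. The other phenotype comparisons gave 0 under all settings run, the replicate block included (0 and 0). Among 26 named regions, the change at 1110008P14Rik turned to 0.111 in recovered reads; its background values stand beside it in the report. All 416 values without 1 library stayed negative. The rule chose the named regions for a large fall in these same libraries, so leaving out 1 could hardly turn a value positive. The count is therefore not read as a result. Low reads per summit limit each region, and regions lost or gained outright are not among those shared by 16 libraries.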

Other observations

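Of the members, 18 lay over a gene of a long non-coding RNA. A member 2509 bp from the hairpin of Mir6386 lay at Plscr1, a phospholipid scramblase gene, and changed by -0.62.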
